A study of Mus musculus with 8 samples.

Results

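Unmethylated sites of the open sea are CCGG sites that lie far from dense clusters of CCGG sites and yet were cut by a methylation-sensitive enzyme in liver DNA. They were defined by position and by methylation level. A core site had 5 or more other listed sites within 500 bp. CpG density itself was not measured, so the rule may leave in a CpG island with few listed sites. A site belonged to the open sea when it was autosomal, was listed in all 8 samples, lay over 4000 bp from any core site and had at least 10 tags in the MspI reference. It was unmethylated when its mean m-score over the 8 samples was 75 or above. The rule found 26313 sites, which were 3.85% of the 682673 open sea sites and 2.01% of the 1310003 sites listed in every sample. They made up 24.7% of the 106527 autosomal sites that reached this m-score with 10 or more MspI tags.

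The 8 samples are livers of C57BL/6J mice. The 4 libraries numbered lingonberry 1 to 4 came from mice given a high-fat diet supplemented with lingonberries, and the other 4, HFD 1 to 4, from mice on the high-fat diet alone, so all animals shared the high-fat diet. The series describes 4 mice per group, while the sources used here give no sex, age or length of feeding. Whole frozen liver was used, so a level averages over hepatocytes and the other cells of the organ, and a change in their proportions cannot be told apart from a change within a cell type.

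Methylation was measured by HELP-tagging. HpaII cuts CCGG only when the central CpG is unmethylated, and its isoschizomer MspI cuts whether or not it is methylated. Tags sequenced from the cut ends are counted at each site. The deposited m-score runs from 0, where no HpaII tag was seen, to 100, where no MspI tag was seen, so a high m-score means little methylation. It is relative to the other sites of a sample, because each file holds the MspI reference rescaled to its own HpaII total.

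Most CpGs of a mammalian genome are methylated. CpG islands are the best known exception, and many of them overlap promoters. Outside the islands, local loss of methylation is known from enhancers and other distal regulatory elements, where bound transcription factors keep or make the DNA unmethylated, and from promoters with few CpGs, several of which belong to tissue-specific genes. Which of these elements the sites fall in was not analysed here, as no genome or annotation of the build mm9 was used, and therefore no sequence or gene is given beside a position.

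Open sea sites were mostly methylated. In all, 69.7% of them had a mean m-score below 25, 26.4% lay from 25 to 75, and 3.85% were at 75 or above. The distribution had no gap at the threshold. It held 2297 sites from 75 to 76 and 2284 from 74 to 75, and 11722 sites lay from 70 to 75. The lowest member had 75.0004 and the highest site outside 74.9998. Sites with exactly 9 MspI tags that met the rest of the rule numbered 1129, beside 1148 members with 10 tags.

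**Figure D1:**
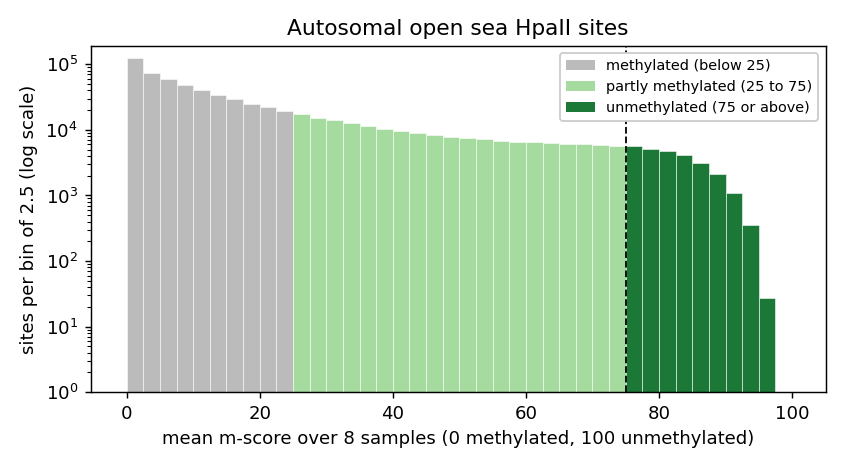
Number of autosomal open sea sites (vertical axis, log scale, bins of 2.5 m-score units) by mean m-score over 8 samples (horizontal axis), with methylated, partly methylated and unmethylated sites in 3 shades and a dashed line at 75. Counts fall steadily from the methylated end, without a separate peak at the 26313 unmethylated sites.

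Among the unmethylated sites the median m-score was 81.2, with quartiles of 78.0 and 85.1 and a highest value of 97.0. These values describe the choice and are no finding. The lower end of the range was crowded, as 10771 sites lay from 75 to 80, and 1471 sites (5.59%) reached 90. A typical member was read by 25.3 HpaII tags per sample, where quartiles over members of the 8-sample mean were 17.4 and 37.0, and by 22.0 tags of the MspI reference. For comparison, partly methylated open sea sites had a median of 6.12 HpaII tags and methylated ones 0.75, while their MspI tags were similar (24.0 and 23.5). Unmethylated core sites had 37.4 HpaII and 31.0 MspI tags. Tags were read without molecular identifiers, so statements on depth cover counting error only.

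How the members' values were spread over the 8 livers follows in large part from the rule, which used the mean of the same livers, and is given as a description. Of the 26313 sites, 9965 (37.9%) were at 75 or above in each of the 8 livers and 21064 (80.1%) in 6 or more. No member lacked HpaII tags in any sample. At 474 members 1 or more livers fell below 50, and at 1 of these 2 livers did. The number below 50 was highest in lingonberry 3 with 120, followed by lingonberry 2 with 81 and HFD 3 with 60, and it lay from 39 to 49 in the other 5. Lingonberry 3 and HFD 3 are also the shallowest libraries of their diets. The median SD of the m-score between livers of a diet was 5.09, where counting HpaII tags alone gives 3.34. At partly methylated open sea sites these were 14.1 and 12.2. The m-score is bounded at 100, so SDs at different levels are not on an equal footing.

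Only 9 members fell below 25 in any liver, each in 1 of the 8. The site at chromosome 14, position 28158305 (mm9), had 16.8 in lingonberry 2, where 1 tag was read, and a median of 88.3 in the other 7 livers. At chromosome 9, position 37353618, HFD 3 had 22.1 from 2 tags and the others a median of 85.8. At the other 7 of these sites the low liver also had 1 tag, and the sites had between 11 and 16 MspI tags. At the median level of the other livers, the depth of the low liver would have given 19.9 tags at the chromosome 14 site, 24.3 at the chromosome 9 site and from 10.1 to 24.3 over the 9 sites. The counts of 1 or 2 were thus low for these libraries. They are the lowest values of all members and livers, and no test was made. The sites were picked with their values in view.

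A few members carried very many tags. Those with a mean of 1000 or more HpaII tags numbered 17, of which 10 had fractional tags shared between several genome positions. Together the 17 held from 0.92% (lingonberry 4) to 2.36% (HFD 3) of all HpaII tags of a sample, and the remaining members held from 8.54% (lingonberry 4) to 9.38% (HFD 2 and HFD 3). A lack of fractional tags does not show that a site is a single copy in the genome, and copy number was not tested. The most tagged site without shared tags was at chromosome 2, position 22444220. It had 10109, 10050, 7578 and 3201 tags per 1000000 in lingonberry 1 to 4 and 9711, 7013, 11549 and 10191 in HFD 1 to 4. Its neighbour at position 22444382 followed, with 2095, 2613, 2545 and 1082 with lingonberries and 2261, 2044, 3824 and 2340 without. The next was at chromosome 1, position 24621016, with 1500, 1561, 2076 and 698 against 1934, 3378, 3227 and 2390. Lingonberry 4 was the lowest of the 8 at each of the 3 sites, and the diets overlapped. The MspI reference was also heavily loaded there, with 29617, 18429 and 17935 tags. Mean m-scores were 91.6, 82.0 and 78.9, of which the first lies above the members' 95th percentile of 90.3. In lingonberry 4 the m-scores were 80.8, 66.9 and 54.6, again the lowest of the 8 livers at each site.

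Shared tags touched 1014 members (3.85%), a share below that of methylated open sea sites (6.43%). Of these, 269 had the same tags in all 8 samples as another member. They fell into 115 sets, of which 86 were pairs, the largest held 5 sites and 100 lay within 1 chromosome. Members of such a set carry 1 measurement and are not separate observations.

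The surroundings of a site were not used to choose it, apart from the distance to core sites. Within 100 bp, measured neighbours of an unmethylated site had a median m-score of 75.7, and 52.2% of them were themselves at 75 or above while 1.93% were below 25. The median fell to 74.4 from 100 to 250 bp, 64.6 from 250 to 500 bp, 42.3 from 500 to 1000 bp and 21.7 from 1000 to 2000 bp. From 2000 to 4000 bp it was 18.1, and 58.0% of neighbours were below 25. The median thus lay near the threshold of 75 up to 250 bp, under the members' own median of 81.2, and was below 25 from 1000 bp on.

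Pairs in which both sites are members enter that profile, and these are high by choice. Without them the neighbours had medians of 65.2, 63.1, 52.2, 30.5, 17.5 and 15.8 over the same 6 distances. Nearly all of these are below 75 by construction, since a measured site at 75 so close to a member is usually a member itself. Their median lay between 25 and 75 up to 1000 bp. Around partly methylated sites all neighbours had a median of 44.6 within 100 bp and 15.7 from 2000 to 4000 bp. Around methylated sites these were 5.66 and 12.1. These also include pairs of the same kind. Without such pairs the medians were 20.3 within 100 bp and 8.60 from 2000 to 4000 bp around partly methylated sites, and 35.3 and 44.5 around methylated sites. Each kind then lacks the neighbours in its own range of m-scores, so these medians cannot be ranked against each other, and no order of the 3 kinds is drawn from them.

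Single livers had the same profile. Within 100 bp of a member the median of the other neighbours ran from 63.6 (HFD 3) to 66.5 (lingonberry 1), and from 1000 to 2000 bp from 14.9 (lingonberry 2) to 20.8 (HFD 3). The mean of the 4 lingonberry livers was 65.9 at the short distance and that of HFD 64.3, whereas at the long one they were 16.1 and 18.7. The diets overlapped at the long distance. At the short one they narrowly did not, as the lowest lingonberry liver had 65.53 and the highest HFD liver 65.52. No test was made of these medians.

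**Figure D2:**
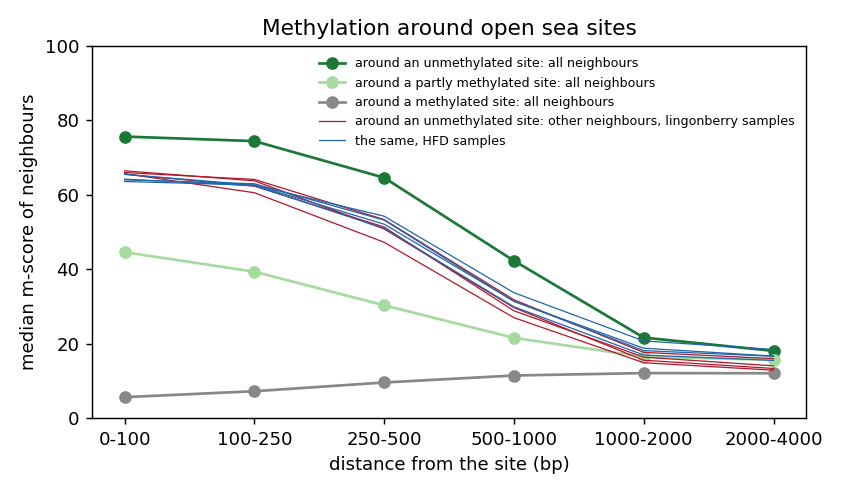
Median m-score of measured sites (vertical axis) by distance from an open sea site in bp (horizontal axis, 6 classes). Thick lines give all neighbours of unmethylated, partly methylated and methylated sites, and thin lines give the neighbours of unmethylated sites that are not members, 1 line per liver. The upper line falls from 75.7 to 18.1, and the thick lines include neighbours of the same kind as the centre, which are high or low by choice.

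By the state of the measured sites within 500 bp, members fell into 5 settings. Some 6788 (25.8%) had no other measured site in that window. At 4708 (17.9%) all of them were at 75 or above, and at 6435 (24.5%) some were. A further 7130 (27.1%) had partly methylated neighbours but none at 75 or above. In the smallest setting, 1252 members (4.76%), every measured neighbour was methylated. This includes members with a single measured neighbour, so methylated sites on both sides are not shown. These members had a median of 18.1 HpaII and 17.0 MspI tags, lower than the 30.4 and 25.0 of members among unmethylated neighbours.

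Members that followed each other without another listed site in between, at gaps of at most 1000 bp, were joined into runs. There were 20520 runs, of which 16214 held 1 site. The other 4306 held 10099 members (38.4%), with 1102 runs of 3 or more and a median span of 296 bp in these. No run exceeded 7 sites. Stretches with more sites within 500 bp count as core and are outside the definition.

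The 5 runs described here had the most members. The 2 runs of 7 are included, and of the 9 runs of 6 the 3 with the highest mean tags were taken. None of their sites had shared tags. The first spans chromosome 12 from 80012212 to 80013311 (mm9, 1100 bp) and lies 48711 bp from the nearest core site. Its mean m-score was 75.6, 80.8, 82.7 and 80.3 in lingonberry 1 to 4 and 79.6, 80.8, 79.4 and 78.7 in HFD 1 to 4. The diets overlapped, with means of 79.9 ± 3.01 and 79.6 ± 0.84 (SD, n = 4). The next measured sites were at 0 on the left, 2307 bp away, and at 19.4 on the right, 651 bp away.

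The other run of 7 spans chromosome 1 from 121969585 to 121970640 (1056 bp). It had 87.3, 83.3, 83.2 and 86.2 with lingonberries and 82.9, 85.1, 88.1 and 85.7 without, again overlapping. Its members ranged from 76.5 to 94.9. It was the least sharply bounded of the pair, as 5 of the 7 sites around it within 5000 bp of its centre were partly methylated and the next site on the right, 1105 bp away, was at 87.6.

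The remaining 3 of the 5 had 6 members. On chromosome 3 from 9520133 to 9521376, the widest of the 5 with 1244 bp, the mean m-score was 87.4, 85.5, 82.8 and 87.7 with lingonberries and 84.9, 86.4, 85.5 and 85.9 without. This run lay 87679 bp from a core site, the farthest of the 5, and 6 of the 8 sites around it were below 25. On chromosome 11 from 6174177 to 6175041 it was 83.1, 83.2, 85.3 and 81.9 against 85.7, 84.5, 81.4 and 78.8. The only other measured site within 5000 bp of that run's centre was at 1.37. The last run, on chromosome 11 from 70043003 to 70043931, had 80.4, 79.8, 77.6 and 81.5 against 81.4, 82.9, 73.4 and 77.8. It lay 7104 bp from a core site, and 10 of 15 sites around it were partly methylated. At each of the 5 runs the diets overlapped, and the differences of the means, from -0.45 to 0.97, were smaller than the larger SD of the diets.

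**Figure D3:**
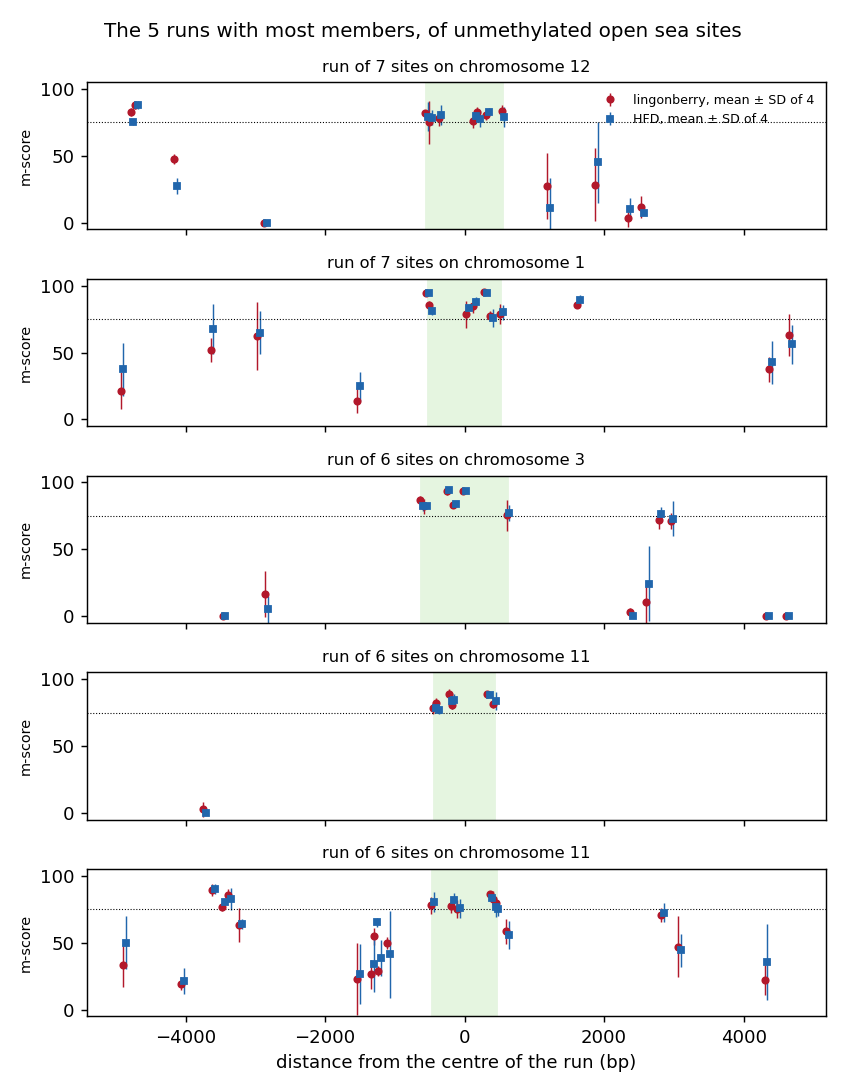
m-score (vertical axis) of the measured sites within 5000 bp of the centre of each of the 5 runs described, by distance from the centre in bp, as mean ± SD of 4 livers per diet. Shading marks the run and the dotted line the m-score of 75. Within the shaded stretch both diets lie high and overlap, and at the runs on chromosomes 3, 11 (upper) and 12 the nearest sites beyond it are low.

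The sites were not spread evenly over the open sea. Of sites with no other listed site within 500 bp, 1.83% were unmethylated. This share was 3.44% with 1 other site, 6.13% with 2, 10.5% with 3 and 18.3% with 4, although the core threshold had already removed the dense clusters. Isolated sites were thus 45.6% of the open sea but 21.7% of its unmethylated sites. The share varied less with distance from the clusters. It was 5.85% from 4000 to 8000 bp of a core site, 4.60% from 16000 to 32000 bp and 2.24% in the class farthest from any core site. The decline with distance was seen at each density. From 4000 to 16000 bp to beyond 64000 bp it went from 2.83% to 1.31% at isolated sites, from 4.44% to 2.74% with 1 neighbour and from 9.57% to 7.27% with 2 to 4. The depth of the MspI reference went with small differences, at 4.24% at 10 to 14 tags, 3.66% at 20 to 49 and 4.22% at 100 or more. These shares are descriptions of sites, which are not independent, and no test was made.

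**Figure D4:**
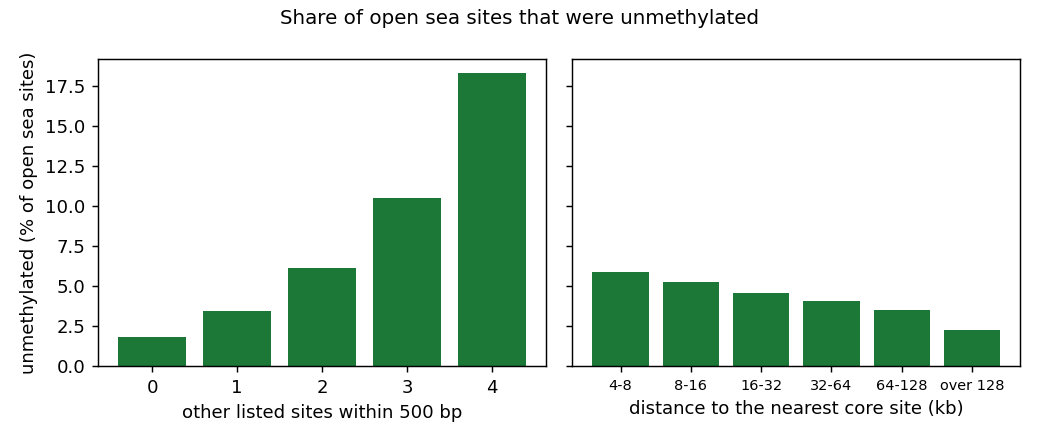
Percentage of open sea sites that were unmethylated (vertical axis, from 0) by how many other listed sites lie within 500 bp (left) and by distance to the nearest core site in kb (right). The share rises from 1.83% to 18.3% with local density and falls from 5.85% to 2.24% with distance.

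Chromosomes were fairly alike. The share of open sea sites that were unmethylated was highest on chromosome 11 (4.76%, 2040 sites) and chromosome 19 (4.34%, 830 sites), and lowest on chromosome 1 (3.23%, 1548 sites) and chromosome 16 (3.32%, 812 sites). By the same rule the X chromosome, which is outside the definition, would have had 402 of 15197 (2.65%). Within chromosomes the spread was wider. Among 2396 bins of 1 Mb with at least 50 open sea sites the median share was 3.03%, with quartiles of 1.44% and 4.62%, and 291 bins had none. These empty bins held a median of 96 open sea sites, beside 258 for all bins.

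At 23 bins the share was 10% or more. The highest was chromosome 16 from 98000001 to 99000000, with 11 of 57 sites (19.3%). Chromosome 17 from 21000001 to 22000000 followed with 26 of 180 (14.4%). On chromosome 13 the bin from 23000001 to 24000000 had 40 of 282 (14.2%) and that from 21000001 to 22000000 had 41 of 295 (13.9%), of which 12 members had shared tags. In the bin at chromosome 10 from 81000001 to 82000000, with 36 of 265 (13.6%), 19 members had shared tags and 17 had the same tags as another member, so part of its count repeats the same measurements. These bins were picked for their share, after values were seen.

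The study asked whether lingonberries alter liver methylation on a high-fat diet. The diets did not enter the choice of members, which used the mean over both. No single member differed past the threshold. With limma on the m-score over all 1310003 sites and Benjamini-Hochberg adjustment, 0 of 26313 members passed an adjusted p of 0.05 in either direction, where 0.00397% of all sites passed as higher and 0.00947% as lower with lingonberries. At an unadjusted p below 0.05, 1132 members (4.30%) were lower and 458 (1.74%) higher, beside 2.54% and 1.63% of all sites. On log2 tags per 1000000 limma also called 0 members (0.0125% of all sites in either direction), with 1385 (5.26%) lower and 586 (2.23%) higher at an unadjusted p below 0.05, beside 2.74% and 1.78%. Many of all tested sites have almost no tags, so a closer background is the 213262 sites with a mean of 10 or more tags. When limma was fitted on these alone, 0 sites passed, and 1246 of 25633 members (4.86%) were lower and 400 (1.56%) higher at an unadjusted p below 0.05, beside 2.38% and 2.85% of all these sites. Without HFD 3 the number of lower members in the fit over all sites was 748 in place of 1132, or 2.84%, beside 2.63% of all sites, so the excess over the background was smaller without that library. These p-values reflect only the variation among the 8 livers.

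Over all members the diets lay close together. The median m-score was 82.5, 82.3, 83.0 and 81.8 in lingonberry 1 to 4 and 83.3, 83.8, 83.9 and 82.4 in HFD 1 to 4. The diets overlapped, because HFD 4 lay below lingonberry 1 and 3. Group means were 82.4 ± 0.50 and 83.4 ± 0.70 (SD, n = 4). The median over members of the lingonberry minus HFD difference was -0.74, and 57.6% of members were lower with lingonberries. Over all sites with 10 or more MspI tags the median difference was -0.24, with 51.3% lower. Over partly methylated open sea sites it was -3.86, with 64.7% lower. Without HFD 4 the median over members was -1.18 and without lingonberry 4 it was -0.50. With at least 20 MspI tags it was -0.40. In tags per 1000000 the median over members of the log2 ratio (pseudocount 0.5) was -0.06, and -0.03 with at least 20 MspI tags. It turned to 0.09 when tags were counted per 1000000 tags of the open sea, so the direction in tags depended on the scale.

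Divided by local density, the differences had opposite signs at the ends of the range. This division was chosen after the data were seen, and earlier results of these data had shown a dependence on density over all sites. It is given as a description, with no test. Isolated members, 5699 in number, had median m-scores of 79.7, 80.7, 82.4 and 77.9 with lingonberries and 83.7, 84.5, 85.4 and 81.2 without. Lingonberry 3, at 82.4, lay above HFD 4, at 81.2, and the other 3 lingonberry livers lay below all HFD livers. Group means were 80.2 ± 1.85 and 83.7 ± 1.84 (SD, n = 4).

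Over isolated members the median difference was -3.40, and 79.5% of them were lower with lingonberries. It was -1.02 with 1 other site within 500 bp, -0.05 with 2, 0.46 with 3 and 0.85 with 4, and the percentage lower fell from 79.5% to 60.8%, 50.6%, 45.0% and 39.1%. Single livers changed the middle of this range. With 2 other sites the difference turned to 0.06 without lingonberry 3 and to 0.11 without lingonberry 4, and was -0.29 without HFD 4. With 3 it was 0.72 without lingonberry 3, 0.22 without HFD 3 and 0.30 without HFD 4, and with 1 it was -1.54 without HFD 4. With 4 other sites the livers had 84.2, 83.6, 83.3 and 84.2 with lingonberries and 83.4, 83.3, 82.5 and 83.2 without, so the difference was small and the diets overlapped. The 8 livers differed in order between the ends of this range. Among isolated members lingonberry 4 was the lowest liver and HFD 3 the highest, whereas with 4 other sites HFD 3 was the lowest and lingonberry 1 and 4 the highest.

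The same m-scores can be read as the share of members at 75 or above in each liver. At isolated members the percentage at 75 or above was 72.3, 76.5, 81.2 and 64.7 in lingonberry 1 to 4 and 87.3, 89.5, 92.5 and 76.9 in HFD 1 to 4, with overlap. With 4 other sites it was 89.7, 86.7, 86.1 and 91.7 against 86.5, 86.3, 82.8 and 87.2. Of isolated members 528 (9.26%) were lower and 13 (0.23%) higher at an unadjusted p below 0.05 by limma, and of members with 4 other sites 30 (1.13%) were lower and 85 (3.20%) higher. The background of 2.54% lower and 1.63% higher over all sites lies between these. Over the sites with a mean of 10 or more tags, fitted alone, 2.38% were lower and 2.85% higher. The 3.20% higher with 4 other sites was close in size to this 2.85%, but it comes from the fit over all sites. Shares by local density were not counted in the separate fit, so none of them has a like background there.

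Tags per 1000000 are the same measurement on another scale, because the MspI reference is 1 fixed set in all files, so they give no separate evidence. Isolated members had medians of 1.99, 2.11, 2.29 and 1.86 tags per 1000000 with lingonberries and 2.42, 2.60, 2.89 and 2.15 without, with overlap, and the median log2 ratio was -0.24. With 4 other sites the livers had 4.04, 3.91, 3.92 and 4.01 against 3.84, 3.83, 3.57 and 3.90. Here the diets only narrowly did not overlap, at 3.910 in lingonberry 2 and 3.904 in HFD 4, and on the m-score they did. The ratio was -0.08 with 1 other site, -0.004 with 2, 0.04 with 3 and 0.08 with 4. Counted per 1000000 tags of the open sea, it was -0.12 at isolated members and 0.06, 0.15, 0.19 and 0.24 at the others, so the order from isolated to dense stayed and the direction at 1 and 2 other sites turned. Partly methylated open sea sites showed a like order on the m-score, from -5.99 at isolated sites to 0.52 with 4 other sites. The recovered library totals ranged from 6121989 to 16076961 tags with lingonberries and from 5877080 to 7428108 without, so depth moved with diet, and its part in these differences was not tested.

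**Figure D5:**
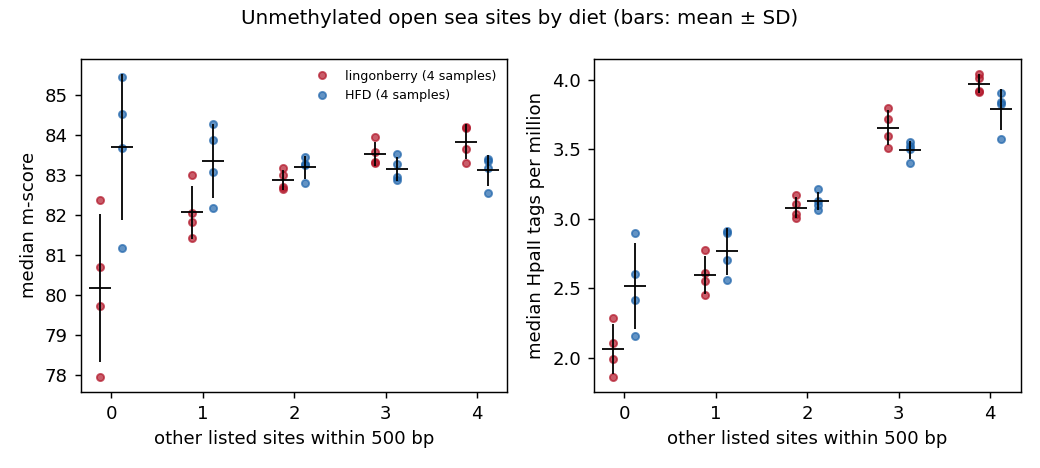
Median m-score (left) and median HpaII tags per 1000000 (right) of unmethylated open sea sites in each of the 8 livers, by how many other listed sites lie within 500 bp. Points are livers, black marks are mean ± SD of 4, and the vertical axes do not start at 0. Lingonberry livers lie mostly below HFD livers at isolated sites, and the diets come together and change order toward 4 other sites.

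Members with methylated neighbours alone had a median difference of -2.74, and those with no measured neighbour -3.12, beside -3.40 at isolated members. The 5699 isolated members are all among the 6788 with no measured neighbour, so -3.12 and -3.40 come largely from the same sites. Members with all neighbours unmethylated had 0.17, those with mixed neighbours 0.57, and those with partly methylated neighbours -0.49. Distance to the clusters showed the same order in a smaller range, from -0.40 at 4000 to 16000 bp of a core site to -0.68 at 16000 to 64000 bp and -1.20 beyond. Isolated members were 1380 of 7659 in the nearest class and 2136 of 8243 in the farthest. The difference was not divided by distance and density together, so distance is not shown to be a separate pattern.

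Among members without shared tags, the 3 lower and the 3 higher sites with the smallest unadjusted limma p are described singly, and none passed the adjustment. At each the diets did not overlap in m-score, which is how such sites are found. The first was at chromosome 13, position 31712401 (mm9), 4443 bp from a core site. It had 73.7, 71.8, 66.5 and 68.9 in lingonberry 1 to 4 and 86.7, 87.7, 82.7 and 86.7 in HFD 1 to 4, a difference of -15.7 ± 2.00 (SE, limma unadjusted p = 0.000107, adjusted p = 0.301). It had 1.31, 1.20, 0.98 and 1.08 tags per 1000000 with lingonberries and 2.70, 2.91, 2.04 and 2.69 without, from 50 and 70 tags in all, and the diets did not overlap on this scale either. Its measured neighbour, at 90.3, differed by 0.63.

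The isolated member at chromosome 2, position 38280575, had 75.9, 69.3, 67.0 and 73.0 with lingonberries and 87.6, 86.8, 86.6 and 85.6 without (-15.3 ± 2.06, limma adjusted p = 0.35). The isolated member at chromosome 17, position 89067927, had 65.8, 64.9, 73.0 and 71.9 against 83.8, 83.3, 86.4 and 86.8 (-16.2 ± 2.26, limma adjusted p = 0.404), or 0.62, 0.60, 0.82 and 0.78 tags per 1000000 against 1.42, 1.38, 1.70 and 1.75.

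In the other direction, the member at chromosome 13, position 63358189, had 81.4, 86.0, 85.7 and 86.8 with lingonberries and 74.9, 73.7, 74.6 and 76.1 without (10.2 ± 1.49, limma adjusted p = 0.456), or 3.36, 4.51, 4.41 and 4.80 tags per 1000000 against 2.42, 2.30, 2.38 and 2.56. At chromosome 16, position 89959480, the values were 80.7, 78.6, 81.6 and 84.1 against 71.9, 67.0, 72.3 and 68.5 (11.4 ± 1.82, limma adjusted p = 0.554). Its measured neighbours went the other way, with differences of -17.6 and -3.38. At chromosome 9, position 22064286, the values were 80.01, 83.6, 84.3 and 81.6 against 73.98, 75.7, 72.3 and 71.3 (9.06 ± 1.55, limma adjusted p = 0.656), and its 3 measured neighbours differed by 1.23 to 3.73. At the 3 named sites with measured neighbours, no neighbour differed in the same direction by as much as the site itself.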

How the data were processed

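HELP-tagging was applied to 8 mouse livers, 4 per diet. Per the file headers, each deposited file lists a chromosome, a position, an m-score and a value named conf for each HpaII site of 1 sample. The m-score is a deposited score from 0 to 100, and conf was treated as a deposited signal. From the values, they are the angle and the length of the vector of MspI and HpaII tags. Build mm9 and CASAVA are named in the submitters' processing notes. The sources used here name no aligner, filter or origin of the MspI reference.

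The sine of the angle times the length gave the HpaII tags. MspI tags came from the cosine, divided by its commonest value among sites with an m-score of 0, and the median over files was used, with a tolerance of 0.05 at the minimum of 10. From 96.1% to 97.0% of HpaII values above 0 were whole within 0.02, and a site with a fractional value was taken to share tags. Limma 3.58.1 in R 4.3.3 (empirical Bayes with a mean trend, lingonberry against HFD) was run on the 1310003 sites listed in all files. The code was also run on simulated tags with counting error only. Those lack variation between livers, so that run does not show how limma performs on these livers.

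The members, the division by neighbours and the lists were chosen with earlier results of these data known. The sites named are the 3 with the smallest unadjusted p in each direction, the 5 runs with most members (ties to the higher mean tags) and the 3 most tagged. Planned gene lists and motif searches were not run, as no mm9 genome or annotation was used. Alternatives covered the distance, m-score and MspI thresholds, shared tags, scaling, pseudocount, low-tag filter and each sample left out. Means over members get no p.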

Additional observations from a re-analysis of the deposited data

Results flagged for a closer look

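Among 84 groups of 4 livers tested for a liver far from the others of its diet, 3 had one, where chance gives about 4.2. The percentage of all HpaII tags held by members with 2 other sites within 500 bp was 2.19 in lingonberry 4 and 2.28 to 2.29 in the other lingonberry livers, leaving out members with a mean of 1000 or more tags. The percentage held by members 16000 to 64000 bp from a core site was 3.46 in HFD 4 and 3.68 to 3.71 in the other HFD livers. The site at chromosome 2, position 22444382, had 3824 tags per 1000000 in HFD 3 and 2044 to 2340 in the other HFD livers.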

How the results depend on the processing

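The count of 0 members past an adjusted p of 0.05 was the same in all 15 alternatives (limma), and the smallest adjusted p of any member lay between 0.0878 and 0.881. With 1 liver left out, 748 to 1397 members were lower and 317 to 628 higher at an unadjusted p below 0.05. The number of members was 15542 at a mean m-score of 80, 1471 at 90, 15693 with 20 MspI tags and 9965 when every liver had to reach 75, and without 1 liver it ranged from 25872 to 26899. At a threshold of 90 the median difference over members was 0.0329 and the median log2 ratio of tags 0.00771, and per 1000000 open sea tags the ratio was 0.0899. With 1 liver left out they ranged from -1.18 to -0.50 and from -0.08 to -0.04. By other sites within 500 bp, the median difference then ranged from -4.33 to -2.51 with 0, -1.54 to -0.78 with 1, -0.29 to 0.11 with 2, 0.22 to 0.72 with 3 and 0.57 to 1.15 with 4. With 20 MspI tags the median difference over members was -0.40 and the log2 ratio -0.03. The 6 named sites kept their direction, but this was fixed in advance. The diets did not overlap at them, so leaving out 1 liver could not turn it. Refits without the mean trend or with the low-tag filter use the same difference of means. Medians of neighbouring sites moved by less than 1 SD. No paired analysis was possible because the labels give no number or pairing that links livers of the 2 diets. Depth limits single sites. The median member had 45, 28, 18 and 28 HpaII tags in lingonberry 1 to 4 and 21, 20, 18 and 21 in HFD 1 to 4.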
